A study of Homo sapiens with 2 samples.

Results

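The ubiquitin-conjugating (E2) enzyme genes were examined in CL1-5 cells, a highly invasive human lung adenocarcinoma line, exposed for 24 h to analogue 3 at 0.11 µM, the concentration given as its median effective dose in this line, or for the same time to DMSO. Members were all probe sets of an Affymetrix Human Genome U133 Plus 2.0 array whose platform annotation gives exactly 1 gene symbol starting with UBE2. The rule found 81 probe sets of 32 genes, of 41097 single-gene probe sets of 19775 genes on the array. Of the 32 genes, 26 are protein-coding and 6 are pseudogenes or long noncoding RNAs. Analogue 3 is an iodo-, tripropyl- and methoxy-bearing derivative of desmosdumotin C. The design sought the genes that differ between treated and control cells. Each group was a single array of a single culture of this 1 cell line, so nothing below was checked against replicates and no test across samples was possible. Among the annotated symbols, UBE2D1, UBE2D2, UBE2D3, UBE2L3, UBE2M and UBE2W had no probe set that met the rule, and UBE2V1 shared all of its probe sets with other genes. These genes are not analysed here, apart from the shared UBE2V1 probe sets.

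Ubiquitin is activated by an E1 enzyme, passed to the catalytic cysteine of an E2, and then transferred to a substrate with the help of an E3 ligase. The E2 largely sets which chain is built, and each E2 works with a limited group of ligases. UBE2C and UBE2S serve the anaphase-promoting complex, where UBE2C starts and UBE2S extends the chains that send cyclin B and securin to the proteasome. UBE2T serves FANCL, the ligase that marks FANCD2 and FANCI at DNA crosslinks, while UBE2L6 is induced by interferon and carries the ubiquitin-like protein ISG15. Transcripts of UBE2C, UBE2S and UBE2T are known from other systems to peak in proliferating cells.

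The deposited intensities are linear values with a median of 1 on each array, so each is a multiple of the array median. A gene was represented by its probe set of highest mean log2 intensity and was called measured if 32 (log2 5) was reached on either array. Values under 32 were raised to 32 before the log2 difference, analogue 3 minus DMSO, was taken. A fold taken against this floor is a lower bound. By this rule 22 of the 32 genes were measured, 21 of them on both arrays, and the other 10 lay under the floor on both. Differences between probe sets of the same gene gave a technical SD of 0.17 (log2) for a probe set, over 1127 genes that had at least 2 such readings over the floor. It holds no error from the culture, the RNA preparation or the hybridisation.

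As a check of the label, the keratin and adhesion markers of epithelial cells summed to 542 with analogue 3 and 506 with DMSO over 5 genes, of which 2 were measured. KRT18 made up most of these sums, at 457.9 with analogue 3 and 460.8 with DMSO, while KRT8 had 77.8 with analogue 3 and 42.3 with DMSO, a 1.84-fold higher value. The defining epithelial adhesion genes EPCAM and CDH1 stayed under 1 on both arrays. The mesenchymal markers summed to 1878 with analogue 3 and 1894 with DMSO, with 1 of 3 measured. Nearly all of these sums was VIM, at 1868 with analogue 3 and 1883 with DMSO. CDH2 and FN1 lay far under the floor on both arrays. The leukocyte, fibroblast, endothelial and differentiated lung epithelial markers reached the floor on neither array, and the brightest of them stood at 15.7 with analogue 3 and 11.4 with DMSO. For GAPDH the control probes near the 3′ end gave 1.18 times the 5′ signal in analogue 3 cells and 1.21 times in DMSO cells. For ACTB these ratios were 10.0 for analogue 3 cells and 11.8 for DMSO cells. The ACTB ratios were thus high on both arrays, a limit on RNA quality whose effect on the other values was not tested.

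Promoter windows are printed for UBE2T, UBE2S and UBE2L6, genes chosen with earlier results of these data known. They are RefSeq windows of GRCh38.p14 from 250 bases before to 50 bases after an annotated start, written 5′ to 3′ along the gene. Capitals mark every match on either strand to CCAAT, the box bound by the NF-Y factor, and to TTTGAA or TTTAAA, the core of the cell cycle homology region.
UBE2T, chr1:202341887-202342186, minus strand: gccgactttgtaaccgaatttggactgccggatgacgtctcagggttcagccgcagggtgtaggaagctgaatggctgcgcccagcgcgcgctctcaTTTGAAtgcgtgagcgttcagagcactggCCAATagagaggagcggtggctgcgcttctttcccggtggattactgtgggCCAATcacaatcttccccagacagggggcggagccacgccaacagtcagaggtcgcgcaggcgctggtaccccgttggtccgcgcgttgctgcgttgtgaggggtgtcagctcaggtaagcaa
UBE2S, chr19:55407739-55408038, minus strand: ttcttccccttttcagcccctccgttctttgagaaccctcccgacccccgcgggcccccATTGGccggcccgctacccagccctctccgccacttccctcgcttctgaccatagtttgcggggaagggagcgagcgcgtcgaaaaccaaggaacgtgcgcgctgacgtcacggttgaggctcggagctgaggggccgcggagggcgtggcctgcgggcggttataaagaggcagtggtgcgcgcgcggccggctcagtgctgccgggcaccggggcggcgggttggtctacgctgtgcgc
UBE2L6, chr11:57567886-57568185, minus strand: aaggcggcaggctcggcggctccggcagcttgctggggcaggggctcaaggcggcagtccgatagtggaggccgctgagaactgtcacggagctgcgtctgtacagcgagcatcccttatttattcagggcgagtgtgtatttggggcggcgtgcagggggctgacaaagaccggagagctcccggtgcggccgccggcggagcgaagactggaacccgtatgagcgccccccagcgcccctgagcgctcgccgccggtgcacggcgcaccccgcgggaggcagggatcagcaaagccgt

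The UBE2T window held 2 CCAAT boxes, beginning 124 and 73 bases before the start site, and 1 TTTGAA, beginning 153 bases before it. The UBE2S window held 1 CCAAT box on the opposite strand, and its capitals therefore read ATTGG. Neither of the 2 annotated UBE2L6 windows, of which 1 is printed, held any of the motifs searched. The window of UBE2N, a gene more than 1.5-fold higher, is not printed and held none of them either. Windows were searched for 23 of the 32 genes. UBE2C had no window, and windows on chromosome 8, which holds UBE2V2, were left out. Of those 23 genes, 7 had CCAAT in a window (UBE2E1, UBE2E3, UBE2F, UBE2S, UBE2T, UBE2U and UBE2Z), 3 had TTTGAA (UBE2F, UBE2T and UBE2U) and 2 had TTTAAA (UBE2F and UBE2K). Among 35116 windows of the genome, 34.6% held CCAAT, 15.2% held TTTGAA and 12.2% held TTTAAA. These shares are per window, whereas the counts above are per gene, over 30 windows of the 23 genes. The E2F-type motifs TTTCCCGC and TTTGGCGC, present in 1.63% and 0.652% of all windows, and the interferon-stimulated response element, present in 3.57%, occurred in none of the 23. All motifs were searched on both strands, and these matches are letters in a window, not binding sites.

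The UBE2 family as a whole did not shift in 1 direction, with 12 of 22 measured members above 0, beside 48.4% of all measured genes. With the floor of log2 5, its 4 largest differences lay in genes with known mitotic, crosslink repair or interferon-linked roles. With lower floors or none, the representative probe set of UBE2H (log2 -0.88) passed UBE2S (log2 0.83) in size. UBE2T, UBE2C and UBE2S were higher with analogue 3 and UBE2L6 was lower. Of 22 measured genes, 2 were at least 2-fold higher, beside 3.47% of the 5050 genes measured on the array, and 1 was at least 2-fold lower, beside 2.67%. At 1.5-fold, 5 were higher, beside 9.45% of all measured genes, and 2 were lower, beside 9.13%. The other 15 members, or 68.2%, lay within 1.5-fold in either direction, beside 81.4% of all measured genes. The 5 higher included UBE2N and its pseudogene copy UBE2NL, whose probe sets may not separate them. Among the 21 measured protein-coding members, 4 were at least 1.5-fold higher. The median log2 difference was 0.05 over the 22 genes (quartiles -0.23 and 0.38) and -0.01 over the 5050 genes (quartiles -0.28 and 0.26). Without UBE2T, UBE2C, UBE2S and UBE2L6 it was 0.01 over 18 members. With counts as small as these, 1 gene moves the share of the family by several percentage points.

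**Figure D1:**
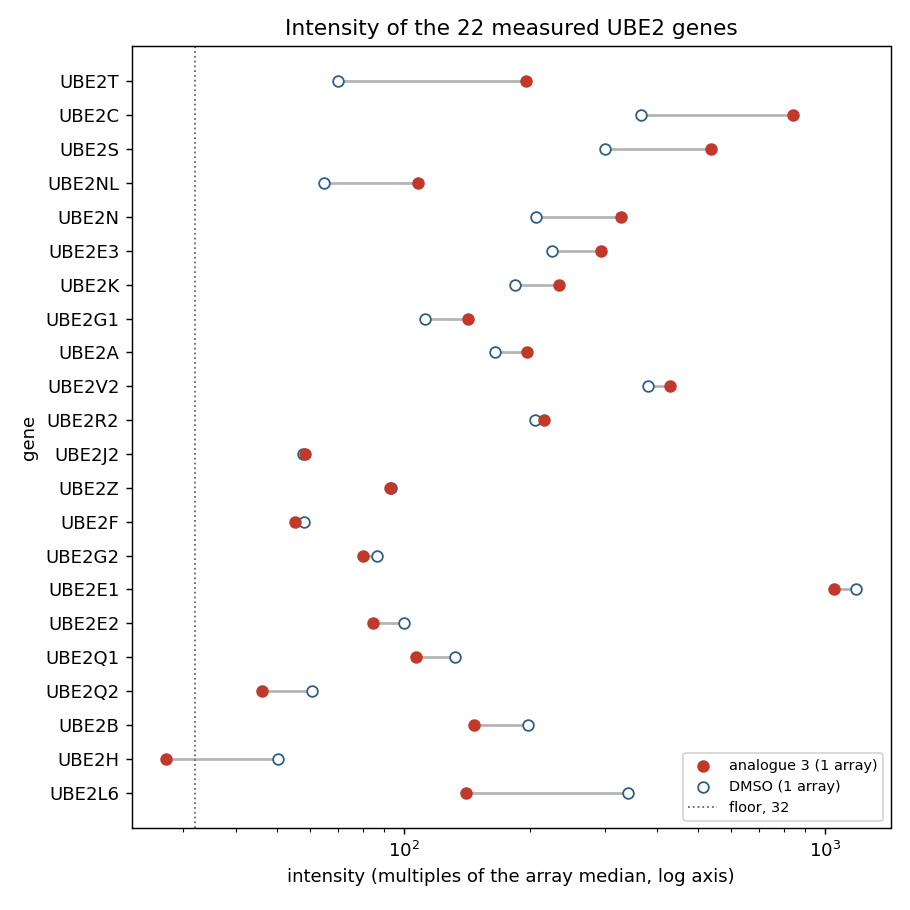
Intensity of the 22 measured UBE2 genes on the analogue 3 array (filled red) and the DMSO array (open blue), in multiples of the array median on a log axis, with genes ordered by their floored log2 difference and the floor of 32 as a dotted line. UBE2T, UBE2C and UBE2S have the red point furthest to the right of the blue one, UBE2L6 has it furthest to the left, and levels of different genes are not comparable because their probes differ.

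UBE2T had an intensity of 195 with analogue 3, against 69.8 with DMSO. It was 2.79-fold higher, with a log2 difference of 1.48, and held rank 41 from the top among the 5050 measured genes. The UBE2T product hands ubiquitin to the substrates of FANCL, and the value of the gene comes from 1 probe set, so no second probe set checks it. With a floor of log2 7 the UBE2T bound fell to 0.61 on the log2 scale, because its DMSO value then lay under the floor.

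UBE2C had an intensity of 839.8 with analogue 3, against 366.9 with DMSO, which placed it 2.29-fold higher (log2 1.19, rank 106). Its partner in chain building, UBE2S, had an intensity of 535.8 with analogue 3, against 301 with DMSO. That difference was 1.78-fold higher (log2 0.83, rank 249) and so fell short of 2-fold. Each gene had 1 probe set. The UBE2S probe set is of the _s_at kind, which can match more than 1 transcript. In a bulk culture a larger share of cells in which such genes are active and more RNA per cell cannot be told apart.

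UBE2L6 was the member furthest below 0. Its intensity was 140.4 with analogue 3, against 341 with DMSO. It was 2.43-fold lower, with a log2 difference of -1.28 and rank 66 from the bottom of the 5050 genes. It too was read by 1 probe set. This probe set is of the plain _at kind and lay above every floor tried, so the floors and probe-set choices could not move its value. Under the 3 scalings (median centring, quantile and loess) the log2 difference stayed between -1.32 and -1.27.

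**Figure D2:**
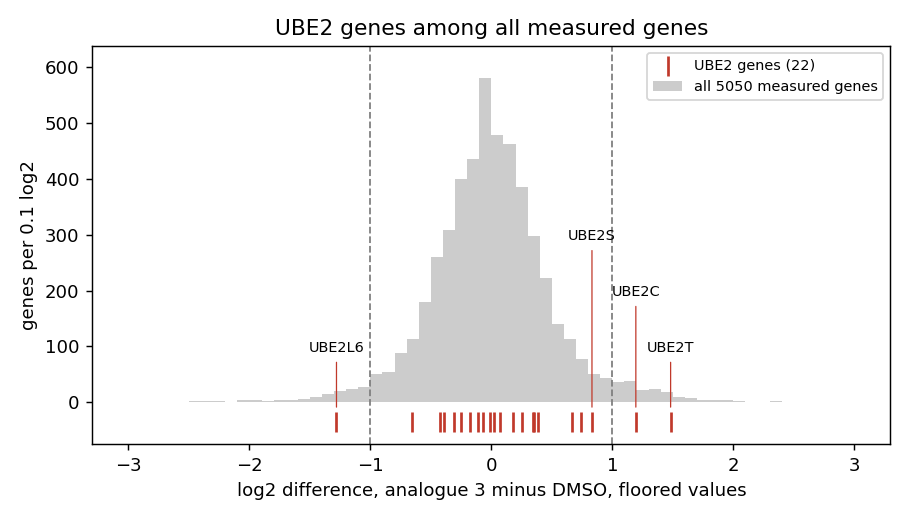
Number of genes per 0.1 log2 units (bars, 5050 measured genes) by floored log2 difference, analogue 3 minus DMSO, with the 22 measured UBE2 genes as red ticks and 2-fold as dashed lines. Most ticks lie in the body of the distribution; UBE2T (1.48) and UBE2C (1.19) lie beyond the upper line, UBE2S (0.83) lies inside it, and UBE2L6 (-1.28) lies beyond the lower one.

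The E2s of DNA damage tolerance and signalling gave a mixed picture. UBE2N, which with an inactive partner builds chains for damage tolerance and NF-κB signalling, had an intensity of 327.7 with analogue 3, against 206.3 with DMSO. It was 1.59-fold higher (log2 0.67), and a second probe set differed by 0.75. Both of these probe sets are of the _x_at kind, whose probes can match related sequences. The third UBE2N probe set, of the plain _at kind, missed the floor, with 22.8 under analogue 3 and 21.5 under DMSO, a log2 difference of 0.08. The probe set of UBE2NL, an X-linked retrocopy of UBE2N annotated as a transcribed pseudogene, is also an _x_at set. It had 108.4 with analogue 3, against 64.7 with DMSO, a 1.68-fold higher value (log2 0.75). Signal of UBE2N and UBE2NL is therefore uncertain between the copies, and the pair cannot be counted as separate genes with assurance.

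UBE2V2, an inactive E2 variant that pairs with the UBE2N product, had 430.3 with analogue 3 and 381 with DMSO (log2 0.18). The 4 probe sets annotated jointly to UBE2V1 and neighbouring or related genes, which lie outside the rule, differed by 0.09 to 0.46 on the log2 scale, all above 0. UBE2A and UBE2B are the human RAD6 homologues, and their brightest probe sets had opposite signs. UBE2A had 196.5 with analogue 3 and 164.6 with DMSO (log2 0.26), and its other probe set differed by -0.15. UBE2B had 147.1 with analogue 3, against 197.5 with DMSO (log2 -0.43), and 5 of its 7 probe sets lay below 0. None of these genes reached 1.5-fold.

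The E2s that start chains with many ligases differed little. UBE2E1 had 1051 with analogue 3 and 1187 with DMSO (log2 -0.18), a difference about the size of the probe-set SD. UBE2E2 had 84.4 with analogue 3 and 100.1 with DMSO (log2 -0.25), and UBE2E3 had 293.9 with analogue 3 and 224.6 with DMSO (log2 0.39). The 3 closely related genes thus did not share a direction. UBE2D4, of the UBE2D group, was under the floor in all of its 5 probe sets. In its representative probe set it had 3.09 with analogue 3 and 5.91 with DMSO.

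Among E2s that extend chains or serve cullin ligases, UBE2K had 234.4 with analogue 3 and 183.7 with DMSO (log2 0.35), and its second probe set over the floor differed by 0.11. UBE2G1 had 142.4 with analogue 3 and 112.2 with DMSO (log2 0.34), and its second such probe set differed by 0.06. Both genes took these smaller values with the median of their probe sets and without _s_at probe sets. UBE2R2, the paralogue of CDC34, had 215.7 with analogue 3 and 205.2 with DMSO, a log2 difference of 0.07 that turned to -0.04 with the median of its probe sets. UBE2H, the partner of the CTLH ligase, was the only member of this group and of the family with a bound. In its representative probe set it had 27.3 with analogue 3, against 50.3 with DMSO, and was at least 1.57-fold lower. All 8 of its probe sets lay below 0, though 5 of them were under the floor on both arrays. The others that reached the floor with DMSO differed by only -0.31 and -0.25 on the log2 scale, without the floor. With the median of its probe sets UBE2H had no value.

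The E2s of endoplasmic reticulum degradation differed by less than the probe-set SD where they were measured. UBE2G2 had 80.3 with analogue 3 and 86.5 with DMSO (log2 -0.11), and the membrane-anchored UBE2J2 had 58.5 with analogue 3 and 57.6 with DMSO (log2 0.02). UBE2J1, the other membrane-anchored E2, had 28.2 with analogue 3 and 29.0 with DMSO and so missed the floor. All 6 UBE2J1 probe sets lay below 0, between -0.52 and -0.04 on the log2 scale. A dim UBE2G2 probe set stood apart at 3.39 with analogue 3 and 1.14 with DMSO, while the other 3 differed by -0.12 to 0.14.

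The remaining measured members were near 0 or lower. UBE2F, which carries NEDD8 to CUL5, had 55.2 with analogue 3 and 57.9 with DMSO (log2 -0.07). UBE2Z, which is charged by the E1 enzyme UBA6, had 92.9 with analogue 3 and 93.5 with DMSO (log2 -0.01, which turned to 0.01 with the median difference of all genes set to 0 and to 0.17 with the median of its probe sets). UBE2Q1 had 107.1 with analogue 3 and 132.5 with DMSO (log2 -0.31), and its relative UBE2Q2 had 46.2 with analogue 3 and 60.7 with DMSO (log2 -0.39). Among members under the floor, UBE2O, a large protein that combines E2 and ligase activity, had 17.1 with analogue 3 and 14.8 with DMSO. UBE2QL1, UBE2U, UBE2DNL and UBE2E2-DT stayed under 1 on both arrays, and UBE2D3-AS1, UBE2Q2P13 and UBE2Q2P16 lay between 2.49 and 3.91 on the 2 arrays.

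Across all 81 probe sets, 28 reached the floor on both arrays, 7 on 1 array and 46 on neither. Of the 28, 17 lay above 0 and 11 below. Without the floor, 3 of the 81 were at least 2-fold higher (those of UBE2T and UBE2C and the dim UBE2G2 probe set), beside 2.14% of all single-gene probe sets, and 1 was at least 2-fold lower (UBE2L6), beside 3.14%. These are small counts near the shares of the whole array. For 7 genes at least 2 probe sets reached the floor on both arrays, and all had the same sign in UBE2B, UBE2G1, UBE2K and UBE2N. In UBE2A, UBE2F and UBE2Z the signs differed. The widest gap among these 7 was 0.41 on the log2 scale, in UBE2A.

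**Figure D3:**
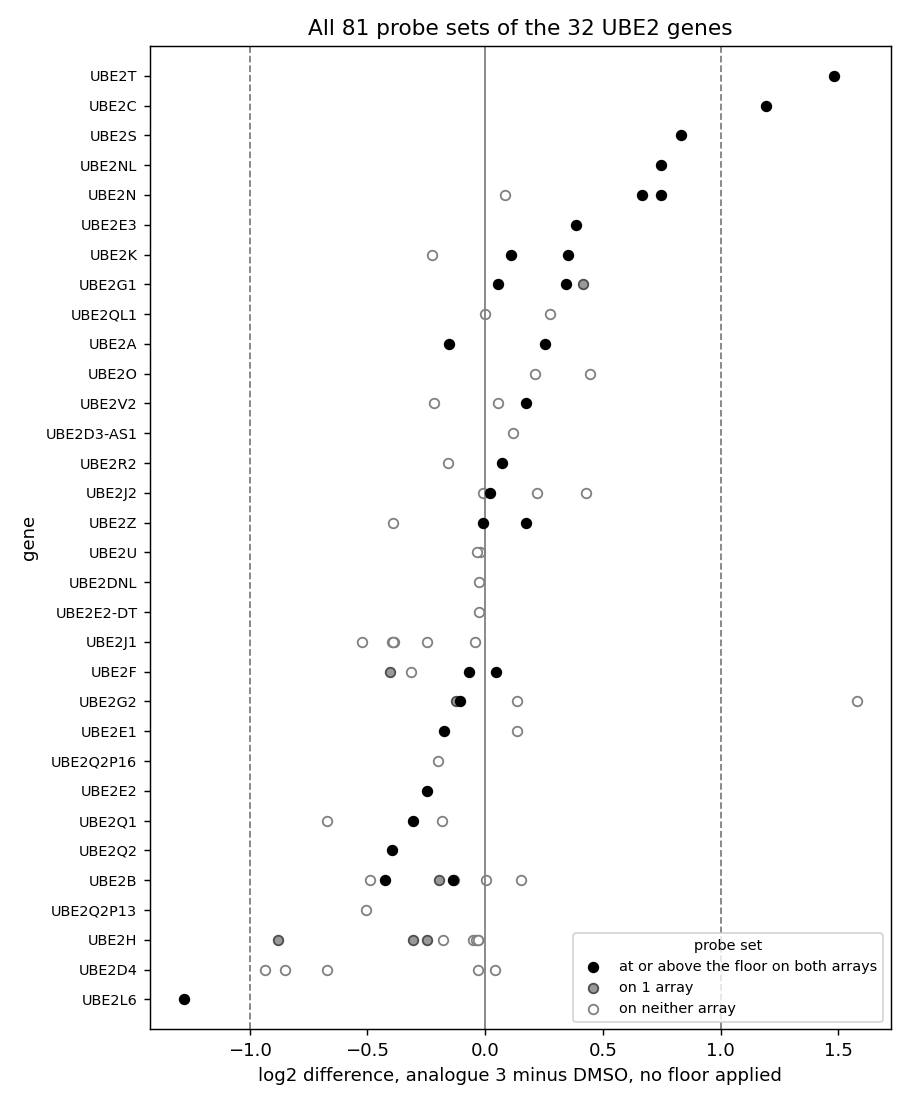
Log2 difference, analogue 3 minus DMSO with no floor applied, of each of the 81 probe sets by gene, filled black where both arrays reached the floor, grey where 1 did and open where neither did, with 2-fold as dashed lines. UBE2T, UBE2C, UBE2S and UBE2L6 have 1 probe set each, the 2 black UBE2N points lie at 0.67 and 0.75 with the open one at 0.08, and the open UBE2G2 point beyond the right line is the dim probe set.

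The genes that feed or use the E2s were read from 10 lists holding 102 genes, of which 58 were measured. Their median log2 difference was -0.03. Of the 58, 1 was at least 2-fold higher (CDC20) and 3 were at least 2-fold lower (ISG15, HERC5 and TRIM25), beside the 3.47% and 2.67% of all measured genes given above.

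The ISG15 conjugation list stood with UBE2L6 in direction. It had a median log2 difference of -1.14 over 5 measured genes of 7. All 5 lay below 0, beside 2599 of all 5050 measured genes. That median was -0.68 over 4 genes when genes took the median over their probe sets, and -1.47 over 6 genes with no floor. ISG15, the modifier that UBE2L6 carries, had 609.6 with analogue 3, against 1672 with DMSO, and was 2.74-fold lower. HERC5, the main ISG15 ligase in human cells, had 108.7 with analogue 3, against 239.1 with DMSO, and was 2.20-fold lower. TRIM25, an interferon-induced ligase, had 49.8 with analogue 3, against 175.2 with DMSO, and was 3.52-fold lower. Some settings ended these 2-fold calls: a floor of log2 7 for HERC5 and TRIM25, the median of probe sets for TRIM25, and omission of _s_at and _x_at probe sets for ISG15. HERC6 had 15.7 with analogue 3, against 43.7 with DMSO, a bound of at least 1.37-fold lower. USP18, the protease that removes ISG15, had 9.25 with analogue 3, against 33.3 with DMSO, and its bound was at least 1.04-fold lower because the DMSO value lay near the floor. UBA7, the E1 for ISG15, had no single-gene probe set. The ligase gene ARIH1 was under the floor on both arrays.

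The anaphase-promoting complex, which UBE2C and UBE2S serve, had a median log2 difference of 0.20 over 13 measured genes of 16. Its activator CDC20 had 493.7 with analogue 3, against 233.3 with DMSO, and was 2.12-fold higher. It was read by a probe set of the _s_at kind, without which no call was left in this direction. ANAPC15 had 32.1 with analogue 3, against 17.4 with DMSO, so that only a bound near 0 can be given for it with the floor. The subunit gene CDC23 was 1.18-fold higher, and its other probe set over the floor differed by 0.67 on the log2 scale. The subunit gene CDC27 was 1.45-fold higher by its brightest probe set (log2 0.54). Its 3 fainter readings over the floor differed by less, from 0.23 to 0.34. CDC16 was 1.34-fold lower (log2 -0.42), and its 2 fainter readings over the floor lay at -0.40 and -0.37. ANAPC16 was 1.71-fold lower in its brightest probe set (log2 -0.77) and differed by 0.03 in another. FZR1, the other activator, was under the floor at 6.52 with analogue 3 and 5.74 with DMSO. In its representative probe set, no measured subunit gene of the ligase reached 2-fold.

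The Fanconi genes, which UBE2T serves, were mostly under the floor, with 3 of 13 measured. FANCL had 93.2 with analogue 3 and 70.4 with DMSO and was 1.32-fold higher. FANCI, a substrate, had 36.5 with analogue 3, against 15.3 with DMSO, a bound of at least 1.14-fold higher. FAAP20 was 1.44-fold lower, at 41.2 with analogue 3 and 59.2 with DMSO. FANCD2 had no single-gene probe set. With no floor, 6 of 88 partner genes were at least 2-fold higher, beside 2.40% of all 19775 genes. Of the same 88, 5 were at least 2-fold lower, beside 3.66%. Those higher were CDC20, FANCB, FANCG, FANCI, FANCM and RAD18, named after their values were seen. FANCG had 16.1 with analogue 3 and 5.95 with DMSO, and RAD18, the ligase partner of UBE2A and UBE2B, had 14.9 with analogue 3 and 5.82 with DMSO. FANCB had 4.05 with analogue 3 and 0.885 with DMSO, and FANCM had 4.80 with analogue 3 and 1.74 with DMSO.

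**Figure D4:**
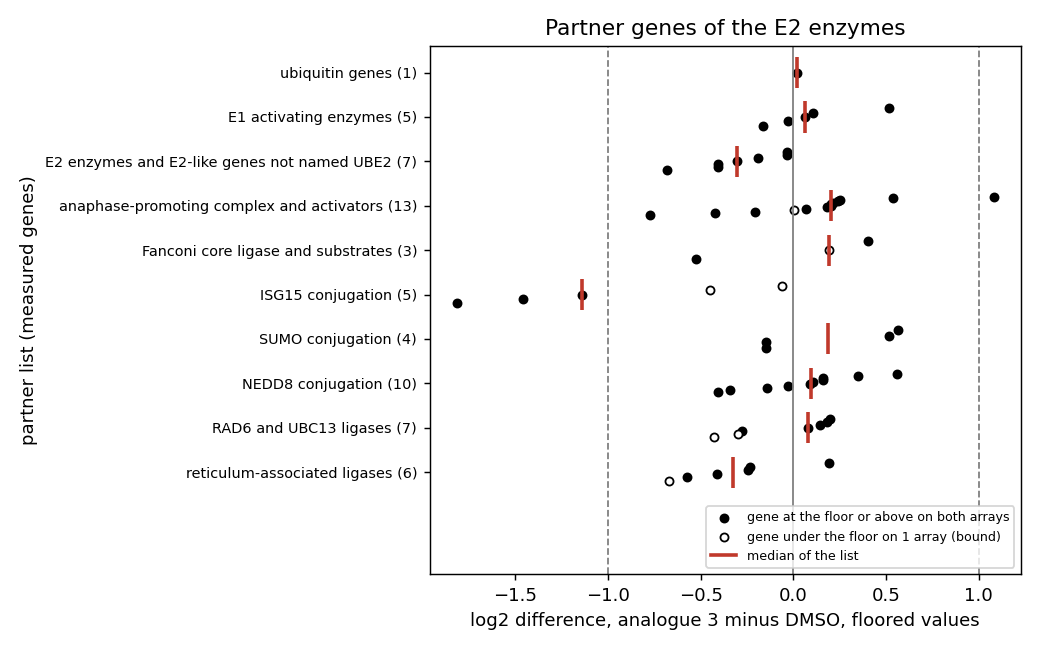
Floored log2 difference, analogue 3 minus DMSO, of the measured genes of the 10 partner lists, open where 1 array lay under the floor, with the median of each list as a red line and 2-fold as dashed lines. The ISG15 conjugation list has its median at -1.14 and 3 genes beyond the left line, CDC20 is the only point beyond the right line, and the other medians lie between -0.33 and 0.20.

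The general conjugation machinery differed less. UBB, a polyubiquitin gene, had 2142 with analogue 3 and 2110 with DMSO (log2 0.02, and -0.04 after loess removal), and UBA1, the main ubiquitin E1, had 97.8 with analogue 3 and 93.5 with DMSO. The E1 list had a median of 0.06 over 5 measured genes (-0.03 without _s_at and _x_at probe sets), in which SAE1, a subunit of the SUMO E1, was 1.43-fold higher with 0.57 (log2) in its second probe set. In the SUMO list, with a median of 0.19 over 4 measured genes, SUMO3 was 1.48-fold higher. The NEDD8 list had a median of 0.10 over 10 measured genes, with the cullin ring subunit RBX1 1.48-fold higher, RNF7 1.33-fold lower, NEDD8 1.27-fold higher and CUL4A 1.27-fold lower. The RAD6 and UBC13 ligase list had a median of 0.08 over 7 measured genes, with UBR2 at least 1.35-fold lower. None of the measured genes of these 4 lists passed 1.5-fold in its representative probe set with the floor.

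The E2 and E2-like genes that do not carry the UBE2 name lay below 0 in 7 of 7 measured genes, with a median of -0.30. Over all 5050 measured genes, 2599 lay below 0. The list ran from -0.68 to -0.03, and its smallest differences lay inside the probe-set SD. TSG101, an E2-like subunit of a membrane sorting complex, had 99.1 with analogue 3, against 158.8 with DMSO, and was 1.60-fold lower. UEVLD and AKTIP, both E2-like proteins without the catalytic cysteine, were each 1.33-fold lower, and CDC34, the E2 of cullin ligases, was 1.23-fold lower. The reticulum-associated ligase list lay below 0 in 5 of 6 measured genes, with a median of -0.33. SEL1L, a scaffold of reticulum degradation, was at least 1.59-fold lower, the ligase gene RNF139 1.49-fold lower and MARCHF6 1.33-fold lower. The 2 other MARCHF6 probe sets over the floor differed less, by -0.19 and -0.09, beside -0.41 (log2) in the brightest. DERL1, the gene above 0, had 0.19 in its brightest probe set but -0.37 and -0.18 in 2 others.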

How the data were processed

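The authors deposited 1 intensity per probe set for each of 2 arrays, analogue 3 and DMSO, with 54675 probe sets. Per the submitters' processing notes the tool was GCRMA, whose version is not given in the sources used here. Each deposited intensity column is linear with a median of 1, which was read from the values, and the scaling step is not stated. Probe sets were named from the platform annotation, and chromosomes and promoter sequences came from RefSeq tables (GRCh38.p14). The members and lists were chosen with earlier results of these data known. Each gene was represented by its probe set of highest mean log2 intensity, with a floor of log2 5 and calls at 2-fold. Intensities were given for UBE2C, UBE2S, UBE2T, UBE2L6 and every member past 1.5-fold, and all other members are accounted for. Of each partner list the 4 largest floored differences were eligible by name, with CDC20, FZR1, FANCL, FANCD2, FANCI and the ISG15 genes. ANAPC15, CDC23, FANCB, FANCG, FANCM and RAD18 were named outside this rule. The number of arrays limits the precision. Computation used Python 3.11.15 with pandas 2.3.3 and statsmodels 0.14.6. The procedure was tested on simulated data with the probe-set SD as the only noise. That test required calls only for simulated differences well over 2-fold, so it does not bear on calls near 2-fold. Alternatives were floors of log2 1, 3, 4 and 7 or none, 3 scalings (median centring, quantile, loess with span 0.3), a gene value from the median over probe sets, leaving out _s_at and _x_at ones, and thresholds of 1.5-fold and 3-fold.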

Additional observations from a re-analysis of the deposited data

How the results depend on the processing

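No paired analysis was possible because each group had 1 array. The 2 members at least 2-fold higher and the 1 lower kept these counts under every alternative except a floor of log2 7, with 1 higher, and the other thresholds. At 1.5-fold there were 5 higher, UBE2N and its pseudogene copy UBE2NL among them, and 2 lower, and at 3-fold 0 of each. UBE2T was at 0.61 (log2) with the floor of log2 7, and UBE2S had no value without _s_at and _x_at probe sets. The family median was 0.22 at most, with the floor of log2 7, and turned to -0.02 with no floor and -0.01 without _s_at and _x_at probe sets. Settings added after seeing the data, protein-coding members only and omission of UBE2C, UBE2S, UBE2T and UBE2L6, gave medians of 0.02 and 0.01. Of the partner genes at least 2-fold different, 1 higher and 3 lower, those higher numbered 6 with a floor of log2 1 and with none, 3 with log2 3, 2 with log2 4, and 0 without _s_at and _x_at probe sets. Those lower numbered 5 with floors of log2 1, 3 and 4 and with none, 1 with log2 7, 6 at 1.5-fold, and 2 both with the median of probe sets and without _s_at and _x_at probe sets. A lower floor clips the folds of HERC6, USP18 and FANCI less. FANCG was also called with a floor of log2 3, and FANCB, FANCM and RAD18 only with log2 1 or none. Of 156 values of the other members under alternatives, 144 moved by less than the probe-set SD and 12 by more. Many of the 156 could not move. A gene over the floor on both arrays keeps its value at lower floors, and a gene of 1 probe set keeps it under the median of probe sets. Of 98 partner list medians, 86 moved by less and 12 by more. The ISG15 list median ran from -1.47 to -0.68. Signal near or under the floor limits the 10 unmeasured members.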
